A study of Rattus norvegicus with 16 samples.

Results

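Iron handling in the liver was followed through 10 genes, chosen by name: Hamp, Hfe, Tfr2, Tfrc, Tf, Fth1, Ftl1, Slc40a1, Cp and Hpx. A gene counted as measured when the array's annotation gave at least 1 probe set that gene's symbol and no other, and it was then represented by such a probe set with the highest mean over all 16 arrays. On that basis 7 of the 10 genes were measured, out of 11434 genes tested in all. The probe sets for Tf, Fth1 and Ftl1 carry several symbols each (2, 1 and 1 probe sets), so transferrin and both ferritin subunits are not described here. The 7 genes had 12 probe sets of their own.

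The samples were livers of 16 male F344 rats, an inbred strain, labelled as 4 weeks old and kept on their regimen for 3 weeks, with 1 array (RG-230 PM) for each rat. In the hydrogen CDAA group, 4 rats ate the CDAA diet, which lacks choline and supplies L-amino acids in place of protein, drank water with 0.7 mM dissolved hydrogen and breathed air containing 2% hydrogen. In the control CDAA group, 4 rats ate the same diet with dehydrogenized water in plain air. The hydrogen normal-diet and control normal-diet groups, 4 rats each, received basal chow with the same 2 treatments. The CDAA diet thus differs from the chow in more than choline. The part of any single component was not tested, and dietary iron was not examined. Pooling of animals is not mentioned in the labels. All values are log2 signals as the authors normalized them. Precision is set by there being 4 arrays a group, and the p-values measure the spread between these samples.

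Hepatocytes set the iron supply of the whole body by secreting hepcidin, the product of Hamp. Hepcidin binds ferroportin, the only known cellular iron exporter, encoded by Slc40a1, and causes its degradation. Hfe, Tfr2 and haemojuvelin sit in the hepatocyte membrane and raise Hamp transcription through bone morphogenetic protein (BMP) receptors and SMAD proteins, and interleukin 6 raises it through STAT3. Tfrc brings transferrin-bound iron into cells, and its mRNA is stabilised by iron regulatory proteins when cells are short of iron. Cp and Hpx encode plasma proteins: ceruloplasmin oxidises iron on its way to transferrin, and haemopexin carries free haem back to the liver.

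The Hamp promoter is shown because it holds the letters of both kinds of signal described above, and the Tfrc, Tfr2 and Slc40a1 promoters because these genes differed between the diets under both treatments. Each run is the 250 bases before the start used in the RefSeq table of the GRCr8 rat assembly, read 5′ to 3′ along the gene's own strand. Capitals mark matches to any of 4 motifs searched on both strands: the BMP element GGCGCC, the STAT element TTCNNNGAA, the hypoxia element core ACGTG and the antioxidant element TGACNNNGC. For Tfr2 and Slc40a1 the table's start lies inside the annotated gene span.
Hamp, chr1:95300272-95300521, minus strand: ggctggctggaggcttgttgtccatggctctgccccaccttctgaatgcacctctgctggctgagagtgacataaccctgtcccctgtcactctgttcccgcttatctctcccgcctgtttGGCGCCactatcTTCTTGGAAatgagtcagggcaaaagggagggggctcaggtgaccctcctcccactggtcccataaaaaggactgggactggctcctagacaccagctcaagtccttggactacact
Tfrc, chr11:81690319-81690568, minus strand: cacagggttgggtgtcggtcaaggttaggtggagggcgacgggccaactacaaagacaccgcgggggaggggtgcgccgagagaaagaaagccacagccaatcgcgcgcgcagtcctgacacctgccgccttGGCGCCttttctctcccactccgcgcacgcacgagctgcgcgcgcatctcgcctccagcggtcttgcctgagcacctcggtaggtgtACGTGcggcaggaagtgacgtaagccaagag
Tfr2, chr12:24761369-24761618, minus strand: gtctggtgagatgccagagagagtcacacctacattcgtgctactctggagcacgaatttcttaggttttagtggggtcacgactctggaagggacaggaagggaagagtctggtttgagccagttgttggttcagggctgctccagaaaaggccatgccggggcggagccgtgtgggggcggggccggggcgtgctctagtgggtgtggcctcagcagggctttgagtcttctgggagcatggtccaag
Slc40a1, chr9:55543461-55543710, minus strand: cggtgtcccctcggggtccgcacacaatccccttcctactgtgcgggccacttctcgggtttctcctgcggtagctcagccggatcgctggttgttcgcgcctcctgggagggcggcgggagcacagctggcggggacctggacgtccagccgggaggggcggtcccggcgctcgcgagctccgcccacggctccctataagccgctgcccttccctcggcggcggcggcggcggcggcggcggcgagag

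In Hamp the BMP element lay 129 to 124 bases before the start and the STAT element, TTCTTGGAA, lay 117 to 109 bases before it. Tfrc held the BMP letters at 118 to 113 bases and the hypoxia core at 31 to 27 bases before its start. None of the 4 motifs occurred in the Tfr2 or Slc40a1 windows, which says only that these letters are not in these 250 bases. Of 33469 rat promoters of the same length, 8.69% held the BMP letters, 7.67% the STAT letters, 16.6% the hypoxia core and 10.1% the antioxidant letters. A match is a run of letters and was not tested as a binding site. Of the 10 genes, 7 had an entry in the promoter table.

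Hamp, the hepcidin gene, is the effector of the system, and its values spread widely in the hydrogen CDAA group. In the hydrogen CDAA group its values were 11.02, 10.50, 12.11 and 11.31, against 11.92, 11.85, 11.88 and 12.17 in the control CDAA group. In the hydrogen normal-diet group they were 11.74, 11.78, 11.87 and 11.50, against 11.12, 11.62, 11.49 and 11.69 in the control normal-diet group. Of the 4 hydrogen CDAA rats, 3 lay below every control CDAA rat and replicate 3 lay among them. The SD was 0.673 in the hydrogen CDAA group and 0.146 to 0.254 in the other groups.

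Hamp did not pass the test in any comparison (limma, with Benjamini-Hochberg adjustment over 22634 probe sets and a call at an adjusted p under 0.05). On the CDAA diet the hydrogen group averaged 11.24 ± 0.67 and the control group 11.96 ± 0.15 (SD, n = 4 each), a log2 difference of −0.72 ± 0.233 (standard error of the fit). That is 1.65-fold lower under hydrogen, with an unadjusted p of 0.00702 and an adjusted p = 0.236. These p-values rest on 1 spread shared by the 4 groups, and the hydrogen CDAA group was wider than the others. Under other settings the difference passed in 0 of 9 fits, with adjusted p from 0.202 to 0.557. On the normal diet the difference was 0.24 (95% interval −0.25 to 0.74, adjusted p = 0.872). The effect of hydrogen on the CDAA diet minus that on the normal diet was −0.96 ± 0.33 (95% interval −1.66 to −0.26, unadjusted p of 0.00999, adjusted p = 0.424).

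Whether Hamp passed depended on which rat was left out. For hydrogen on the CDAA diet it passed in 1 of 16 such fits. Without hydrogen CDAA replicate 3, the hydrogen difference on the CDAA diet was −1.01 and passed the test (adjusted p = 0.0159), as did the diet difference under hydrogen at −0.78 (adjusted p = 0.00195). Without hydrogen CDAA replicate 2, the rat with the lowest value, the 2 differences were −0.48 and −0.24. No label sets replicate 3 apart.

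**Figure D1:**
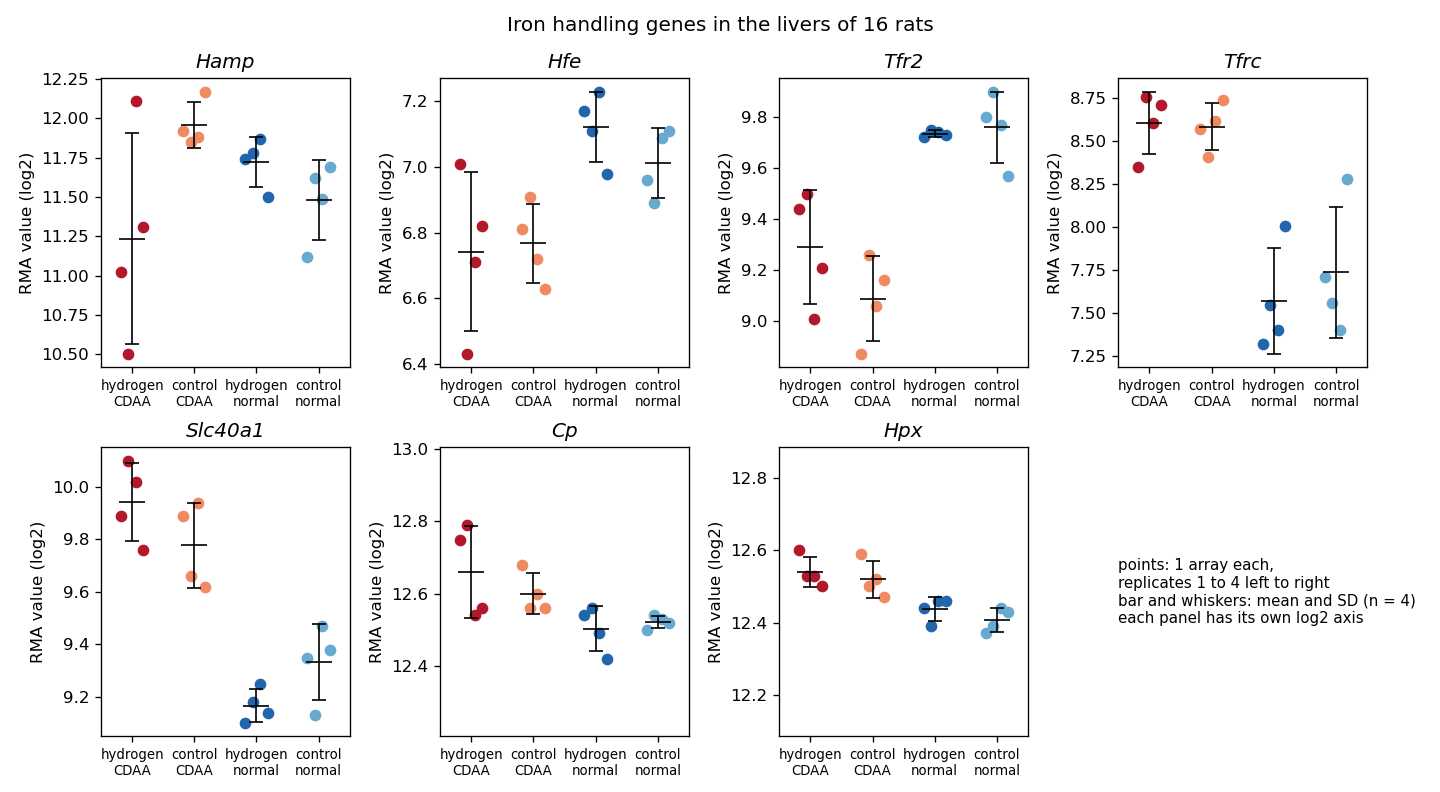
RMA log2 values of the 7 measured iron handling genes (vertical axes, each panel with its own range) in the hydrogen CDAA, control CDAA, hydrogen normal-diet and control normal-diet groups. Points are single arrays and bars are mean and SD (n = 4). Tfrc, Slc40a1 and the uncalled Hpx are higher and Tfr2 lower in all 8 CDAA rats than in all 8 normal-diet rats. The share of all genes that separate in this way was not counted. For Hpx the lowest CDAA value is 12.47 and the highest normal-diet value 12.46. Hamp spreads from 10.50 to 12.11 in the hydrogen CDAA group.

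**Figure D2:**
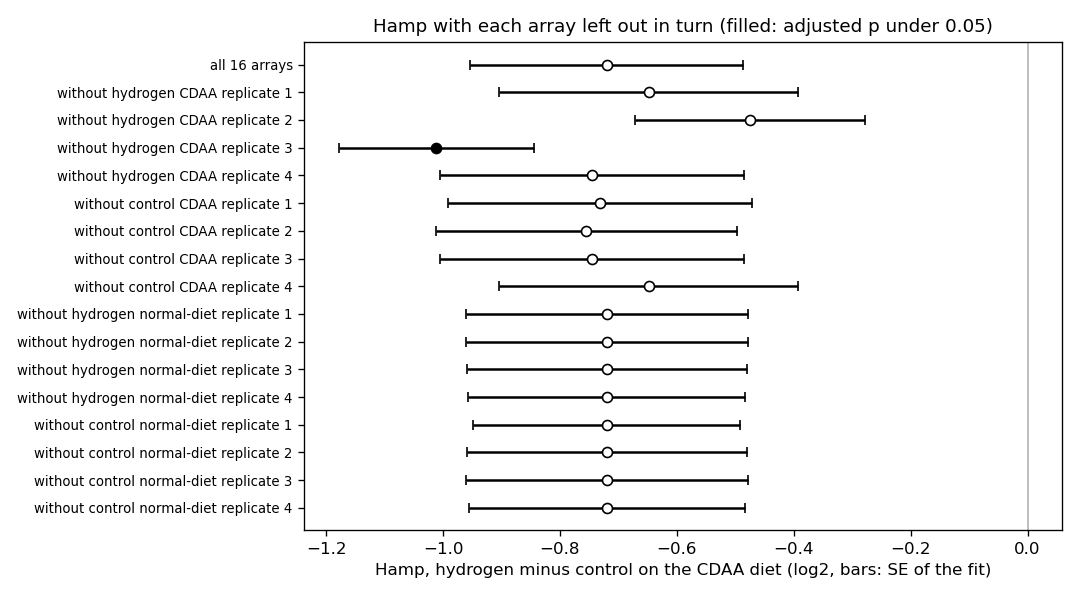
Log2 difference of Hamp between hydrogen and control rats on the CDAA diet with all 16 arrays and with each array left out in turn (horizontal axis; bars are standard errors of the fit, filled points have an adjusted p under 0.05). The difference runs from −1.01 without hydrogen CDAA replicate 3 to −0.48 without hydrogen CDAA replicate 2.

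Hydrogen CDAA replicate 3 also lay at the end of its group on some other genes, in the pathway and outside it. In the order of replicates 1 to 4, Tfr2 in the hydrogen CDAA group was at 9.44, 9.50, 9.01 and 9.21, so that the rat with the highest Hamp had the lowest Tfr2. Il6r, which encodes the interleukin 6 receptor, was at 7.49, 7.52, 6.84 and 7.49 in these rats, and Id1, a target of BMP signalling, was at 6.58, 6.88, 7.34 and 6.24. Replicate 3 was thus lowest for Il6r and highest for Id1. Its mean over 9 Kupffer cell and macrophage markers was 8.52, inside the 8.28 to 8.65 of the group. Outside the pathway, replicate 3 was also highest for Tat, a hepatocyte marker, at 7.65, 7.58, 9.24 and 8.08 in replicates 1 to 4. In any group of 4, some rat is lowest and some rat highest for each gene. These genes were picked out after their values were seen.

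Diet differences in Hamp went opposite ways by treatment, and neither passed. In hydrogen-treated rats the CDAA diet group was lower than the normal-diet group by a log2 difference of −0.49 (adjusted p = 0.0991). In control rats the CDAA group was higher by 0.48 (adjusted p = 0.126), and all 4 CDAA values lay above all 4 normal-diet values. The difference in control rats passed with only those 2 groups in the fit (adjusted p = 0.015), with array weights (adjusted p = 0.0439) and without hydrogen CDAA replicate 3 (adjusted p = 0.0254). These were 2 of 9 other settings and 1 of 16 fits with an array left out, so most refits did not pass. With an array left out the adjusted p ran up to 0.30 and the estimate from 0.355 to 0.545. The estimate stayed at 0.48 with only those 2 groups and without that replicate. The main fit uses 1 spread for all 4 groups, so its standard error of 0.233 includes the wide hydrogen CDAA group. The order of group means was control CDAA, hydrogen normal diet, control normal diet, hydrogen CDAA, and the ranges of mean ± SD of all neighbours in that order overlapped.

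Of the iron sensors of the hepatocyte, Tfr2 fell on the CDAA diet under both treatments. Tfr2 encodes transferrin receptor 2, which is made mainly by hepatocytes and erythroid cells and reports transferrin saturation. In the hydrogen CDAA group it was at 9.44, 9.50, 9.01 and 9.21, against 9.72, 9.75, 9.74 and 9.73 in the hydrogen normal-diet group. In the control CDAA group it was at 8.87, 9.26, 9.06 and 9.16, against 9.80, 9.90, 9.77 and 9.57 in the control normal-diet group. All 8 CDAA rats lay below all 8 normal-diet rats. The share of all genes whose groups separate without overlap was not counted, for this or any other comparison here. Tfr2 was 1.36-fold lower in hydrogen-treated rats (log2 −0.45 ± 0.103, limma adjusted p = 0.00261) and 1.59-fold lower in control rats (−0.67 ± 0.103, adjusted p = 1.42e-04). The 2 diet effects differed by 0.23, with an adjusted p = 0.669 for that difference.

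Hfe encodes an MHC class I-like protein that binds transferrin receptors and is mutated in hereditary haemochromatosis. It was at 7.01, 6.43, 6.71 and 6.82 in the hydrogen CDAA group, against 7.17, 7.11, 7.23 and 6.98 in the hydrogen normal-diet group. The groups overlapped by 1 rat, hydrogen CDAA replicate 1. Hfe fell 1.30-fold on the CDAA diet in hydrogen-treated rats (log2 −0.38 ± 0.103, adjusted p = 0.00703). In the control CDAA group it was at 6.81, 6.91, 6.72 and 6.63, against 6.96, 6.89, 7.09 and 7.11 in the control normal-diet group. There the difference was −0.25 ± 0.103 and did not pass (adjusted p = 0.0746), although it passed with only these groups in the fit (adjusted p = 0.0353), with array weights (adjusted p = 0.0336) and after quantile normalization was applied again (−0.35, adjusted p = 0.0104). It also passed without hydrogen CDAA replicate 1, hydrogen CDAA replicate 2 or control CDAA replicate 2 (adjusted p = 0.0443, 0.0287 and 0.049). The passes were 3 of 9 other settings and 3 of 16 fits with an array left out. Most refits thus did not pass, and the adjusted p reached 0.186 with an array left out. The 2 diet effects on Hfe were not shown to differ (difference −0.14, adjusted p = 0.812).

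Tfrc, the receptor for iron uptake from transferrin, rose most among the measured genes. It was at 8.35, 8.76, 8.61 and 8.71 in the hydrogen CDAA group, against 7.32, 7.55, 7.40 and 8.01 in the hydrogen normal-diet group. It was at 8.57, 8.41, 8.62 and 8.74 in the control CDAA group, against 7.71, 7.56, 7.40 and 8.28 in the control normal-diet group. Every CDAA rat exceeded every normal-diet rat, and replicate 4 was the highest in both normal-diet groups. Tfrc was 2.05-fold higher on the CDAA diet in hydrogen-treated rats (log2 1.04 ± 0.171, adjusted p = 1.68e-04) and 1.80-fold higher in control rats (0.85 ± 0.171, adjusted p = 0.00117). Its second probe set rose too, 1.65-fold in hydrogen-treated rats and 1.51-fold in control rats (adjusted p = 9.71e-04 and 0.00494).

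Slc40a1, the gene of the iron exporter ferroportin, rose on the CDAA diet as well. It was at 9.89, 10.10, 10.02 and 9.76 in the hydrogen CDAA group, against 9.10, 9.18, 9.25 and 9.14 in the hydrogen normal-diet group. It was at 9.89, 9.66, 9.94 and 9.62 in the control CDAA group, against 9.35, 9.13, 9.47 and 9.38 in the control normal-diet group. Again all 8 CDAA rats lay above all 8 normal-diet rats. The rise was 1.71-fold in hydrogen-treated rats (log2 0.78 ± 0.0916, adjusted p = 9.21e-06) and 1.36-fold in control rats (0.45 ± 0.0916, adjusted p = 0.00138). The 2 effects differed by 0.33 (95% interval 0.055 to 0.60), which did not pass over all probe sets (unadjusted p of 0.0215, adjusted p = 0.48). Of its 2 further probe sets, 1 rose by log2 0.94 in hydrogen-treated and 0.68 in control rats (adjusted p = 2.7e-05 and 6.06e-04), and the other did not pass in either (log2 0.24 and −0.14, adjusted p = 0.113 and 0.408).

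Ferroportin is made by macrophages that recycle red cells as well as by hepatocytes, and whole liver RNA was measured, in which more cells of a type and more RNA per cell cannot be told apart. Of 9 tested Kupffer cell and macrophage markers, 6 rose and none fell on the CDAA diet in hydrogen-treated rats (median log2 0.70), and 5 rose and 2 fell in control rats (median 0.41). Over all genes 32.1% rose and 17.3% fell, and 27.3% rose and 13.3% fell. The mean level of the 9 markers was 8.28 to 8.65 in the hydrogen CDAA group against 7.79 to 8.13 in the hydrogen normal-diet group. It was 8.06 to 8.49 in the control CDAA group against 7.45 to 8.31 in the control normal-diet group. Cd68, a lysosomal glycoprotein of macrophages, rose 2.28-fold in hydrogen-treated rats and 1.88-fold in control rats. Clec4f, a lectin of resident Kupffer cells, was 1.53-fold lower in control rats on the CDAA diet (adjusted p = 0.00892). The 3 genes whose values over the 16 arrays were most like those of Slc40a1 were Lgals3, which encodes galectin-3, Lgmn, which encodes a lysosomal protease, and Camk2d (Pearson r = 0.983, 0.979 and 0.976). For Lgals3 the r was 0.932 among the 8 CDAA arrays and 0.849 among the 8 normal-diet arrays, and arrays of 1 diet share that diet. The part of macrophages in the Slc40a1 values was not tested.

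The genes most like Tfr2 were Slco2a1, a prostaglandin transporter, Prodh2, a hydroxyproline dehydrogenase, and the cytochrome Cyp4f4 (r = 0.978, 0.977 and 0.976 over 16 arrays, 0.903, 0.944 and 0.916 among the 8 CDAA arrays, 0.885, 0.617 and 0.749 among the 8 normal-diet arrays). Those most like Tfrc were Mrps34, a mitochondrial ribosomal protein, Tmem41a and Enc1 (r = 0.963, 0.961 and 0.958). For these r was 0.454, 0.49 and 0.392 among the CDAA arrays and 0.924, 0.90 and 0.845 among the normal-diet arrays. Hfe was most like Osbpl1a, Msra and Masp2 (r = 0.926, 0.921 and 0.909), and Cp most like Lzts2, Atg16l2 and Rhoh (r = 0.909, 0.902 and 0.896). These correlations describe likeness over arrays that fall into diet groups and carry no test.

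Cp encodes ceruloplasmin, the main copper protein of plasma. It was at 12.75, 12.79, 12.54 and 12.56 in the hydrogen CDAA group, against 12.54, 12.56, 12.49 and 12.42 in the hydrogen normal-diet group. It was at 12.68, 12.56, 12.60 and 12.56 in the control CDAA group, against 12.50, 12.54, 12.53 and 12.52 in the control normal-diet group. Replicates 1 and 2 of the hydrogen CDAA group stood above all other arrays. In hydrogen-treated rats Cp passed, with the CDAA group 1.12-fold higher (log2 0.16 ± 0.0615, adjusted p = 0.0474). That call is marginal: its 2 other probe sets did not pass (adjusted p = 0.292 and 0.267), and leaving out 1 array ended it in 12 of 16 cases. In control rats the log2 difference was 0.08 (adjusted p = 0.353), and the 2 effects were not shown to differ (adjusted p = 0.815).

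Hpx, the haemopexin gene, did not pass on either diet comparison, although its groups did not overlap. Every CDAA rat lay above every normal-diet rat, as for Tfrc and Slc40a1, but the lowest CDAA value was 12.47 and the highest normal-diet value 12.46. The share of all genes that separate in this way was not counted. It was at 12.60, 12.53, 12.53 and 12.50 in the hydrogen CDAA group, against 12.44, 12.39, 12.46 and 12.46 in the hydrogen normal-diet group. It was at 12.59, 12.50, 12.52 and 12.47 in the control CDAA group, against 12.37, 12.39, 12.44 and 12.43 in the control normal-diet group. The log2 differences were 0.10 ± 0.0466 in hydrogen-treated rats (adjusted p = 0.0837) and 0.11 ± 0.0466 in control rats (adjusted p = 0.0716). In control rats the difference passed under 5 of 9 other settings, with adjusted p between 0.00414 after repeated quantile normalization and 0.126. With an array left out it passed in 0 of 16 fits.

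**Figure D3:**
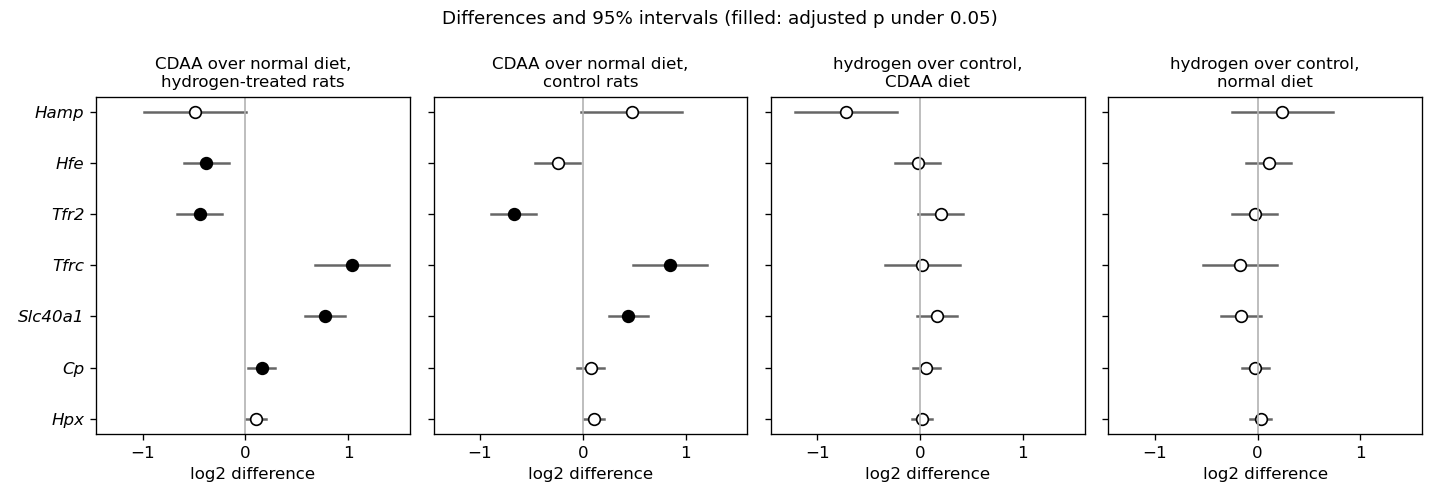
Log2 differences (horizontal axes) of the 7 measured genes between the CDAA and normal diets in hydrogen-treated and in control rats, and between hydrogen and control rats on the CDAA and the normal diet. Points are estimates, lines are 95% intervals of the fit, and filled points have an adjusted p under 0.05: 5 of 7 genes in hydrogen-treated rats and 3 of 7 in control rats differ by diet, and none by hydrogen.

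Counted together, 3 of the 7 genes rose on the CDAA diet in hydrogen-treated rats (Tfrc, Slc40a1, Cp) and 2 fell (Tfr2, Hfe). Over all 11434 genes, 32.1% rose and 17.3% fell in that comparison. In control rats 2 of 7 rose (Tfrc, Slc40a1) and 1 fell (Tfr2), where 27.3% of all genes rose and 13.3% fell. With 7 genes these counts are near the shares over all genes, so the number of changed iron genes does not set them apart. The median log2 difference was 0.10 in hydrogen-treated rats and 0.11 in control rats, beside 0.053 and 0.04 over all genes. In limma 0 of the 7 passed for hydrogen on either diet. At an unadjusted p under 0.05 there was 1 on the CDAA diet, Hamp, and 0 on the normal diet. Of all 11434 genes, 1440 on the CDAA diet and 813 on the normal diet were under that p, so 1 of 7 does not set Hamp apart. Over all genes limma called 0.376% for hydrogen on the CDAA diet and 0.00875% on the normal diet.

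Intervals show what these data can say of hydrogen. On the CDAA diet the 95% interval of the hydrogen difference was −0.34 to 0.38 log2 for Tfrc, −0.017 to 0.42 for Tfr2, −0.029 to 0.36 for Slc40a1 and −0.24 to 0.19 for Hfe. It was −0.070 to 0.19 for Cp and −0.079 to 0.12 for Hpx. On the normal diet the widest of these 6 was that of Tfrc, −0.53 to 0.19. No gene of the array passed for the difference of the hydrogen effects between diets (0% of 11434 genes, with 1060 genes at an unadjusted p under 0.05), and neither did any of the 7, of which 2, Hamp and Slc40a1, were at an unadjusted p under 0.05.

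One array stood apart. Control normal-diet replicate 4 lay at −13.4 on the leading principal component of the tested probe sets, against −35.1 to −32.3 for the other arrays of its group and 23.8 to 40.1 for the CDAA arrays. It had the highest Tfrc value and the lowest Tfr2 value of its group. Without it the diet differences in control rats were 1.03 for Tfrc (2.04-fold, adjusted p = 7.74e-05), −0.74 for Tfr2 (adjusted p = 9.93e-05) and 0.46 for Slc40a1 (adjusted p = 0.00254). The liver identity of the samples was plain, with the 8 hepatocyte markers averaging between 12.06 and 12.46 on every array and albumin at the top of the scale.

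Around these 7 genes, 75 other genes of iron, haem and copper handling were tested in 7 lists. On the CDAA diet 23 of them rose and 17 fell in hydrogen-treated rats (30.7% and 22.7%), and 16 rose and 14 fell in control rats (21.3% and 18.7%), again near the shares over all genes. In limma 0 passed for hydrogen, with 14 at an unadjusted p under 0.05 on the CDAA diet and 9 on the normal diet. Of all 11434 genes, 1440 and 813 were under that p. For each list and treatment the called genes with the smallest adjusted p are given below, up to 4, and genes outside that rule are marked as picked after their values were seen.

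In the BMP and SMAD branch, which drives Hamp transcription, 18 genes were tested. Of these 3 rose and 5 fell on the CDAA diet in hydrogen-treated rats, and 4 rose and 2 fell in control rats (medians −0.056 and −0.068). Id1, a transcriptional target that usually moves with Hamp when BMP signalling is raised, was 1.98-fold higher in hydrogen-treated rats (6.76 ± 0.467 against 5.78 ± 0.174) and 2.38-fold higher in control rats (7.14 ± 0.204 against 5.89 ± 0.376). Their adjusted p-values were 0.00114 and 2.33e-04. Smad5, a receptor-activated SMAD, rose 1.59-fold and 1.77-fold, and Smad4, the shared partner of the SMADs, rose 1.31-fold and 1.26-fold in hydrogen-treated and control rats. Bmpr2, a type 2 BMP receptor, fell 1.62-fold in hydrogen-treated rats and 2.43-fold in control rats (adjusted p = 0.0123 and 1.96e-04).

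Other members of that branch went down. Smad1 was 1.19-fold lower on the CDAA diet in hydrogen-treated rats (adjusted p = 0.00725) and passed no test in control rats. The next genes were picked after their values were seen. Smad7, an inhibitory SMAD that BMP signalling induces, was 1.40-fold lower in hydrogen-treated rats (adjusted p = 0.00925), and Bmp6, the main iron-responsive ligand, known from mouse to come from sinusoidal endothelium, was 1.21-fold lower (adjusted p = 0.00962). The Bmp6 values were low, 4.27 to 4.94, where the array medians were 4.33 to 4.37. Hjv, which encodes the BMP co-receptor haemojuvelin, was 1.31-fold lower in control rats (adjusted p = 0.0213) and at a log2 difference of −0.29 in hydrogen-treated rats (adjusted p = 0.0635). In hydrogen-treated rats Id1 and Smad7, both BMP targets, thus changed in opposite directions. Among related genes of the list, Id2 fell in these rats (log2 −0.47, adjusted p = 0.035). Id3, Smad6 and Atoh8 did not pass there (−0.13, 0.038 and 0.16). In control rats Id3 rose by 0.48 (adjusted p = 0.0435), and Id2, Smad6, Smad7 and Atoh8 did not pass.

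In the interleukin 6 branch 8 genes were tested, of which 2 rose and 2 fell in hydrogen-treated rats and 1 fell in control rats. That 1 gene was Il6r, which was 1.79-fold lower on the CDAA diet in control rats (6.62 ± 0.472 against 7.46 ± 0.168, adjusted p = 0.00281). In hydrogen-treated rats it averaged 7.34 ± 0.33 on the CDAA diet and 7.31 ± 0.113 on the normal diet (adjusted p = 0.917). The difference between these effects did not pass (log2 0.87, unadjusted p of 0.00544, adjusted p = 0.374). In hydrogen-treated rats Creb3l3, a liver transcription factor shown in mouse to act on the hepcidin promoter, rose 1.31-fold (adjusted p = 0.00153), and Cebpa, another factor of that promoter, fell 1.33-fold. The Cebpa values were low, 3.89 to 4.79, where the array medians were 4.33 to 4.37. In control rats Cebpa averaged 4.09 on the CDAA diet and 4.21 on the normal diet (adjusted p = 0.401). Jak1, a kinase of the interleukin 6 receptor, rose 1.10-fold in hydrogen-treated rats (adjusted p = 0.0272). Socs3, the feedback inhibitor induced by STAT3, lay at 3.35 to 3.75 on all 16 arrays, around the line of 3.68 used to filter dim probe sets, and gave no difference. Il6 itself did not pass that filter, and Stat3 had probe sets that passed in opposite directions in hydrogen-treated rats.

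Of 10 genes of iron entry and ferrireduction 4 rose and 1 fell in hydrogen-treated rats, and 2 rose and 2 fell in control rats (medians 0.069 and 0.045). Slc11a2, the ferrous iron transporter of endosomes, rose 1.73-fold in hydrogen-treated rats and 1.38-fold in control rats (adjusted p = 4.45e-05 and 0.00385). Slc39a14, the carrier by which hepatocytes take up iron not bound to transferrin, rose 1.20-fold and 1.11-fold (adjusted p = 9.91e-04 and 0.0372). Its relative Slc39a8 fell 1.46-fold and 1.31-fold (adjusted p = 2.64e-05 and 7.34e-04). Among the ferrireductases, Steap4 rose 1.45-fold in hydrogen-treated rats and Steap3 fell 1.24-fold in control rats.

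Genes that sense or move iron inside cells rose in 6 and fell in 1 of 13 cases in hydrogen-treated rats, and rose in 4 and fell in 2 in control rats (medians 0.20 and 0.13). Slc25a28, the mitochondrial iron importer mitoferrin 2, rose 1.61-fold in hydrogen-treated rats and 1.58-fold in control rats (adjusted p = 1.4e-05 and 3.57e-05). Fbxl5, which removes iron regulatory protein 2 when iron is plentiful, rose 1.22-fold and 1.31-fold. Ncoa4, the receptor that delivers ferritin to lysosomes, rose 1.32-fold in hydrogen-treated rats (adjusted p = 1.63e-05) and stood at 0.13 in control rats (adjusted p = 0.0511). The iron chaperone Pcbp1 rose 1.25-fold and 1.21-fold, and its relative Pcbp2 rose 1.21-fold and 1.15-fold (adjusted p = 4.25e-04 and 0.0065). Aco1, which encodes iron regulatory protein 1, fell 1.27-fold in control rats (adjusted p = 0.00475), and Ireb2, which encodes iron regulatory protein 2, did not pass in either (log2 0.20 and 0.30).

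Haem genes moved in both directions. Of 7 genes of haem synthesis 3 fell and 1 rose under each treatment (medians −0.27 in hydrogen-treated and −0.13 in control rats). Fech, which inserts iron into haem at the last step, fell 1.31-fold in hydrogen-treated rats and 1.51-fold in control rats (adjusted p = 5.78e-04 and 3.13e-05). Ppox fell 1.44-fold and 1.47-fold, Alad fell 1.25-fold and 1.28-fold, and Cpox rose 1.22-fold in both. Alas1, the rate-limiting step in liver, did not pass (log2 −0.27 and −0.04).

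Of 11 genes of haem breakdown and transport 5 rose and 2 fell in hydrogen-treated rats, and 3 rose and 3 fell in control rats (medians 0.12 and 0.018). Flvcr2, a membrane carrier described for haem and for choline, rose most: 3.33-fold in hydrogen-treated rats (5.87 ± 0.372 against 4.14 ± 0.145) and 2.85-fold in control rats (5.81 ± 0.102 against 4.30 ± 0.303). Its adjusted p-values were 1.38e-06 and 8.99e-06. On the normal diet Flvcr2 was dim, at 4.01 to 4.75, where the array medians were 4.33 to 4.37. Hmox1, the inducible haem oxygenase that frees iron from haem, was at 7.99, 8.07, 7.94 and 8.00 in the hydrogen CDAA group, against 7.14, 7.22, 7.03 and 7.11 in the hydrogen normal-diet group. It was at 7.63, 7.36, 7.55 and 7.71 in the control CDAA group, against 7.23, 6.81, 7.42 and 7.35 in the control normal-diet group. The first pair of groups was wide apart and the second overlapped.

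Hmox1 rose 1.83-fold on the CDAA diet in hydrogen-treated rats and 1.28-fold in control rats (adjusted p = 1.28e-05 and 0.0155). The difference between these effects did not pass (log2 0.52, unadjusted p of 0.00368, adjusted p = 0.35), nor did hydrogen against control on the CDAA diet (log2 0.44, adjusted p = 0.114). Blvra, the biliverdin reductase that follows haem oxygenase, rose by log2 0.59 and 0.29. Slc46a1, a carrier of folate and haem, fell 1.61-fold and 1.57-fold, and Lrp1, the receptor for haemopexin-bound haem, fell 1.33-fold and 1.45-fold (adjusted p = 5.86e-04 and 8.42e-05).

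Among 8 copper genes 2 rose and 3 fell in hydrogen-treated rats, and 2 rose and 1 fell in control rats (medians −0.084 and −0.076). Heph, which encodes hephaestin, a membrane relative of ceruloplasmin, rose 2.63-fold in hydrogen-treated rats (5.32 ± 0.316 against 3.92 ± 0.0991) and 2.02-fold in control rats (5.06 ± 0.364 against 4.04 ± 0.0967). Its adjusted p-values were 6.68e-06 and 1.61e-04. On the normal diet Heph was dim, at 3.83 to 4.18, where the array medians were 4.33 to 4.37, so these folds start from a low signal. Slc31a1, the copper importer, fell 1.39-fold and 1.33-fold, and Ccs, the copper chaperone of superoxide dismutase, rose 1.32-fold and 1.17-fold. Sod1, the dismutase that Ccs serves, fell 1.12-fold in hydrogen-treated rats (adjusted p = 0.00875).

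Markers of other cell types changed with the diet beside these genes. Of 6 stellate cell markers 5 rose in hydrogen-treated rats and 3 in control rats, and of 4 tested bile duct markers 2 rose under each treatment. Col1a1, Krt19 and Krt7 did not pass under either treatment. Of 4 tested red cell genes 1 fell in hydrogen-treated rats and 2 fell in control rats, and of 7 sinusoidal endothelial markers 2 rose and 1 fell, and 1 rose and 1 fell. The tested red cell genes were dim, at 3.53 to 4.90. Over all genes 32.1% rose and 17.3% fell in hydrogen-treated rats, and 27.3% rose and 13.3% fell in control rats. The part of these cell types in the values of the iron, haem and copper genes was not tested.

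**Figure D4:**
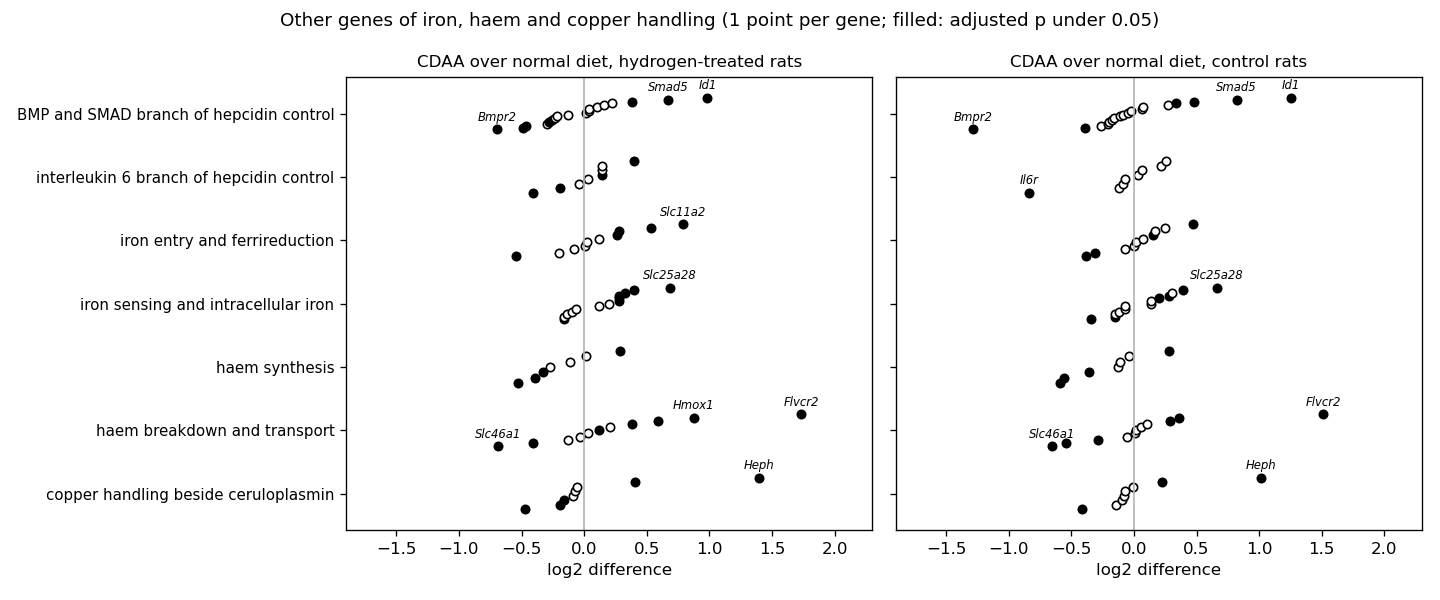
Log2 differences between the CDAA and normal diets (horizontal axes) for 75 further genes of iron, haem and copper handling, 1 point per gene, in hydrogen-treated and in control rats. Filled points have an adjusted p under 0.05, and the larger of these are named; Flvcr2, Heph and Id1 lie farthest to the right in hydrogen-treated rats, and Bmpr2 farthest to the left in both.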

How the data were processed

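Liver RNA of 16 rats was, per the labels' protocols, labelled with the 3'IVT Express kit for RG-230 PM strips. The authors deposited log2 values, 1 per probe set and array, and RMA and Affymetrix Expression Console stand in the submitters' processing notes without versions. RMA equalises the distributions of arrays, so a shift of all transcripts in 1 group would not show. Probe-level signals were not used here, and scan dates are not in the labels.

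Starting from these log2 values, 97 control probe sets were left out and 22634 of 31139 probe sets were tested, those above 3.68 (the 0.3 quantile of all values) on at least 4 arrays. The 4 group means were estimated jointly with limma 3.58.1 (R 4.3.3), with eBayes and Benjamini-Hochberg adjustment over all tested probe sets. Each probe set had 1 estimate of the spread, shared by the 4 groups. Errors beside log2 differences are standard errors of the fit, errors beside means are SD, and folds are powers of 2 of the log2 differences. The fit was tested on simulated data. Gene symbols came from the platform annotation, in which 19069 probe sets had 1 symbol, 572 several and 11498 none, and all 7 measured genes matched a current RefSeq gene. The plots used Python 3.11.15 with matplotlib 3.10.9.

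The genes, lists and tests were chosen with earlier results of these data known. The naming rule takes the 10 iron genes, up to 4 called and 2 uncalled genes of each list, and the 3 genes most like each called iron gene. Replicates are separate samples per the labels. No 2 arrays of a group held identical values. Replicate numbers are shared by the groups without a stated meaning, so the replicate number was a block only in an alternative fit.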

Additional observations from a re-analysis of the deposited data

How the results depend on the processing

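The measured iron genes were refitted under 9 other settings and with each of 16 arrays left out. Tfrc, Tfr2 and Slc40a1 passed in every one of these fits for the diet under both treatments, and Hfe for the diet in hydrogen-treated rats, with the same direction. In control rats 3 genes passed for the diet, and 5 did after repeated quantile normalization, 5 with only the 2 groups in the fit and 6 with array weights. With only the 2 groups in the fit, the log2 differences of Hamp and Hfe stayed at 0.48 and −0.25, while the error estimate and the adjustment changed. The cause under the other settings was not tested. Cp in hydrogen-treated rats no longer passed with only the 2 groups in the fit (adjusted p = 0.118), with array weights (adjusted p = 0.0575), with the mean of its probe sets (adjusted p = 0.0887) or in 12 of 16 fits with an array left out (log2 0.11 to 0.20). For hydrogen on the CDAA diet 0 genes passed, and 0 to 1 with an array left out, the 1 being Hamp without hydrogen CDAA replicate 3. Hamp kept its negative sign there (−1.01 to −0.48). Over all probe sets 71 passed for hydrogen on the CDAA diet, 2 with only the 2 groups in the fit and 21 to 346 with an array left out.

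Small hydrogen differences that never passed changed sign. With array weights Tfrc on the CDAA diet was at −0.024 and Hfe at 0.028. With an array left out, hydrogen on the CDAA diet ran from −0.036 to 0.11 for Tfrc and from −0.11 to 0.079 for Hfe. On the normal diet it ran from −0.31 to 0.013 for Tfrc, from −0.088 to 0.022 for Tfr2 and from −0.039 to 0.0075 for Cp. The difference of the hydrogen effects for Hpx ran from −0.03 to 0.013.

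With the replicate number as a block, limma called 5 genes for the diet in hydrogen-treated rats, 3 in control rats and 0 for hydrogen, and no gene's call changed (Hamp for hydrogen on the CDAA diet, adjusted p = 0.202). Deviations from the group means correlated over 0.1 in 9 of 24 same-numbered pairs of arrays (median 0.078) and in 7 of 72 pairs with different numbers (median −0.0098). Not every same-numbered pair was alike, and the labels give no meaning to the number. Centring arrays on their medians moved the median diet difference over all probe sets by 0.015, and repeated quantile normalization moved that in control rats by −0.028. Single genes moved otherwise: under repeated quantile normalization the diet difference in control rats was 0.20 for Hpx, 0.13 for Cp and −0.35 for Hfe. The number of arrays limits precision to the standard errors and intervals given.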
